A study of Mus musculus with 9 samples.

Results

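The 10 genes described here encode receptors of the FGF, HGF, EGF and PDGF growth factors and a pair of their ligands: the FGF receptors Fgfr1, Fgfr2, Fgfr3 and Fgfr4, the ligand Fgf2, the HGF receptor Met and its ligand Hgf, the EGF receptor Egfr, and the PDGF receptors Pdgfra and Pdgfrb. They were taken by symbol from the 47729 genes of the count table, and all 10 were found. Of these, 9 had at least 1 CPM (reads of a gene scaled to the library's total) in at least 3 of the 9 libraries and were tested among 13324 genes, and Fgfr2 was not. Fgfr3 and Fgfr4 met that minimum only through the libraries in which they were high. The cells were C2C12, an established line of mouse myoblasts, and every group was of that line by its labels, which also give whole muscle as the tissue; the libraries are treated here as cultured cells. The groups were a control that received Cas9 with a guide RNA that has no target (WT), a population in which CRISPR-Cas9 was aimed at the clock gene Per1 (Per1KO), and one in which it was aimed at Per2 (Per2KO). Each was sampled at day 0, in growth medium with fetal bovine serum, and at days 3 and 5 of differentiation in horse serum, with 1 library per population and day. Whether a knockout is 1 clone or a pool is not given in the sources used here. Sequence at the edited sites was not analysed here.

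Fibroblast growth factors, hepatocyte growth factor, EGF family ligands and platelet-derived growth factors bind receptor tyrosine kinases at the cell surface, which pair up, phosphorylate each other and pass the signal through adaptor proteins to RAS and the ERK kinases. In muscle, FGF2 and HGF are known as mitogens of satellite cells and cultured myoblasts: they hold the cells in the cell cycle and delay differentiation, and HGF acting on MET is known for waking quiescent satellite cells. FGFR1 and FGFR4 are the FGF receptors best known in the myogenic lineage, while PDGFRA is used to mark the fibro-adipogenic progenitors of muscle and PDGFRB the pericytes.

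Libraries differed in depth between populations. The total was 6773320, 5771983 and 5020385 counts in WT at days 0, 3 and 5, and 41997763 to 48051824 counts in the knockout libraries. Knockout totals averaged 7.82 times those of WT, and the titles of the WT libraries alone end in L002. The titles do not say what this suffix stands for. Depth, any batch behind the suffix and genotype cannot be told apart in a comparison with WT. The targeted genes were checked first. Per1 stood at 35.6, 33.8 and 31.01 CPM in WT, 20.9, 32.4 and 28.9 in Per1KO, and 16.5, 30.4 and 32.9 in Per2KO. Per2 stood at 9.74, 11.5 and 20.5 CPM in WT, 6.59, 9.44 and 10.6 in Per1KO, and 3.50, 9.13 and 8.38 in Per2KO. By transcript level the targets did not tell the knockouts apart: Per1 was not called in Per1KO (log2 fold change -0.34, adjusted p = 0.310), and Per2 was lower in Per2KO (-1.02, 0.0230). Myoblast markers were present in every library (6 genes summing to 2574 to 6769 CPM), while 5 endothelial markers summed to at most 3.62 CPM and 5 leukocyte markers to at most 2.86 CPM, with Emcn, Adgre1 and Cd3e at 0 counts throughout.

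Sequence at the start sites is shown for the members on which the results turn: Fgfr3 and Fgfr4, which rose with differentiation, Met, which fell, and Pdgfra, which was lower in both knockouts. The windows are RefSeq promoters on GRCm38.p6 that run from 250 bases before to 50 bases after the start site, and 8 of the 10 members matched an entry (not Fgfr1 or Pdgfrb). Capitals mark a searched motif, all lines are the plus strand, on which the 4 genes lie, and positions count from 0 at the RefSeq start site. Of Fgfr3 and Pdgfra, only bases upstream of the gene's start in both annotations are printed, and of Fgfr4 and Met a stretch of 30 bases around a motif.
Fgfr3, chr5:33721474-33721673: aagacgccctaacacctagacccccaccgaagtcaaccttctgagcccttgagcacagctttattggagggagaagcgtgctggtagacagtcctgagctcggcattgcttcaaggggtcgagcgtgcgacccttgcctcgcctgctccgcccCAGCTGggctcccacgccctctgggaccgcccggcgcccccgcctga
Fgfr4, chr13:55152694-55152723: gtaccgggctgaCATTTGccgggtctcgga
Fgfr4, chr13:55152796-55152825: cccgccacgctgCAGTTGcagggacattcc
Fgfr4, chr13:55152808-55152837: cagttgcagggaCATTCCtggctcttcggc
Met, chr6:17463819-17463848: gggacgaacagaCACGTGctggggcgggta
Pdgfra, chr5:75152001-75152250: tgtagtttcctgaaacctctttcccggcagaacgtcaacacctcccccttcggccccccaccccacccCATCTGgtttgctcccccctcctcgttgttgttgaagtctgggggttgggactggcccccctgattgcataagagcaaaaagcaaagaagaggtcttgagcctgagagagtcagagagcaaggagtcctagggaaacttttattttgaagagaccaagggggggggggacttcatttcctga

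Both strands were searched. The E-box, which MYOD and myogenin bind, was spelled CANNTG. The form of it that CLOCK and BMAL1 prefer was spelled CACGTG, and each match of it is also an E-box. The core that TEAD factors bind was spelled CATTCC, and the MEF2 site was the last of the 4 motifs. The Fgfr3 window held 1 E-box, at -97. The Fgfr4 window held 2, at -112 and -10, and the only TEAD core among the 8 members, at 2, which shares its printed stretch with the second E-box. The Met window held E-boxes at -126 and 25, the first of them in the clock form, and the Pdgfra window held E-boxes at -182 and 17. The Hgf window held 2 and the Fgfr2 window 3, of which the one at 28 has the clock form, and those of Egfr and Fgf2 held 0. The MEF2 site in this spelling occurred in none of the 8 windows. Of all 32851 RefSeq promoter windows of 300 bases, 72.3% hold the E-box, 7.15% its clock form, 14.7% the TEAD core and 3.69% the MEF2 site. These matches describe letters in a window, and the libraries give no measurement of binding.

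Fgfr1 was the most abundant of the 10 transcripts in the mean of the 9 libraries when levels were divided by transcript length. Its mean was 55.0 ± 9.24 CPM per kilobase (SD over the 9 libraries), followed by Pdgfrb at 32.5 ± 11.9, Met at 12.9 ± 7.60, Hgf at 8.63 ± 2.76 and Egfr at 3.83 ± 1.32. The low group comprised Fgfr3 at 1.81 ± 1.57, Pdgfra at 1.73 ± 0.94, Fgf2 at 1.28 ± 0.71 and Fgfr4 at 1.20 ± 0.94 CPM per kilobase, and Fgfr2 came last at 0.051 ± 0.080. The ranges over the 9 libraries of each pair of neighbours in this order overlapped, so the order between neighbours is not firmer than the spread over days and populations. In WT at day 5, Pdgfrb (56.4 CPM per kilobase) was level with Fgfr1 (56.1). Pdgfrb was above Pdgfra in all 9 libraries.

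**Figure D1:**
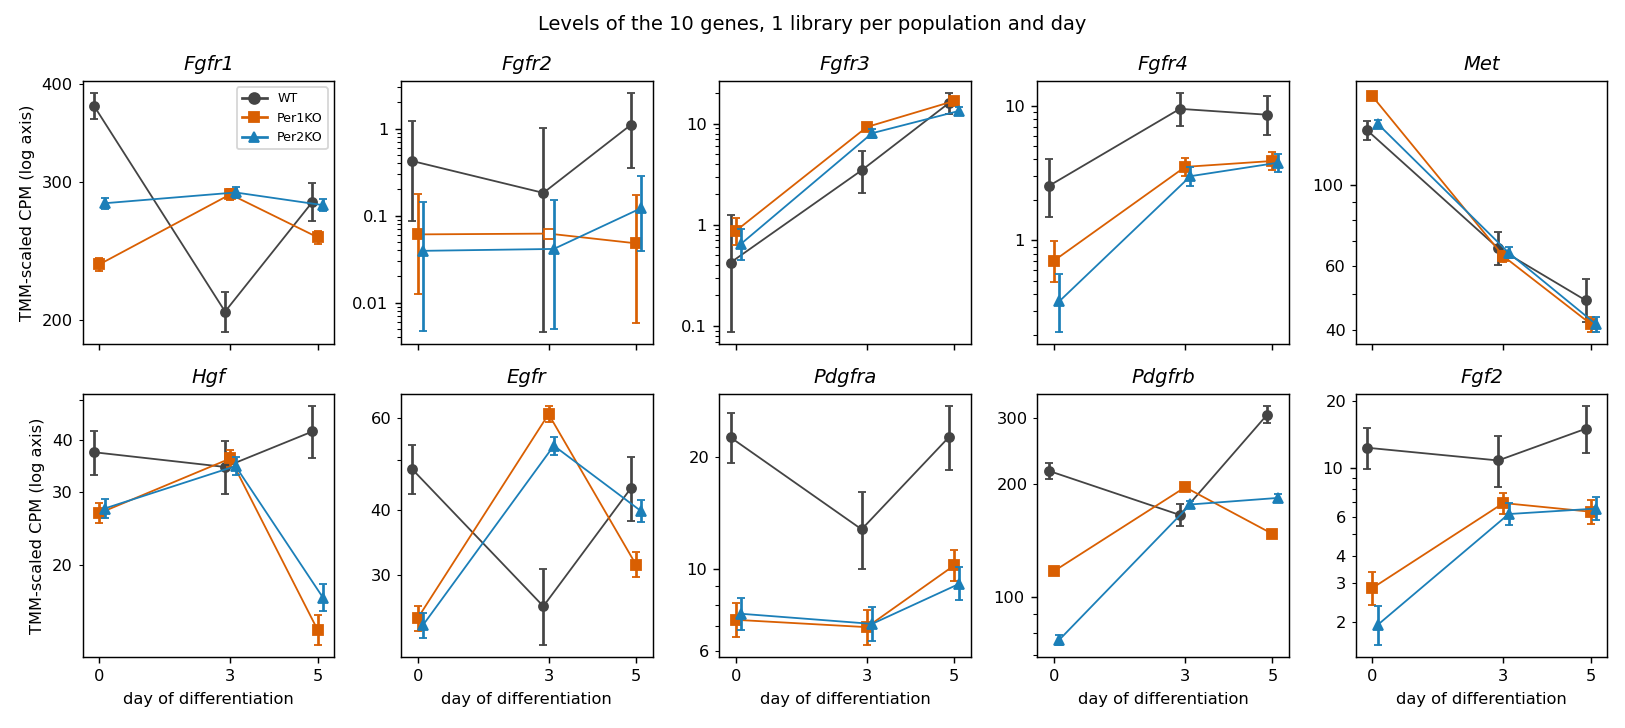
TMM-scaled CPM (log axis, a scale of its own per gene) of the 10 genes against the day of differentiation in WT, Per1KO and Per2KO; each point is 1 library, bars are exact 95% Poisson intervals of the count and cover counting error only, and the open symbol marks a count of 0 drawn at the level of 3 counts. Fgfr3 and Fgfr4 lie higher and Met lower at days 3 and 5 in all 3 populations. The WT points of Fgfr2, Pdgfra and Fgf2 lie above all knockout points, those of Fgfr2 on 1 to 5 counts. The share of all genes with points apart in these ways is not given here.

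The FGF receptors differed widely in abundance. Fgfr1, on chr8:25513654-25575718, had 375, 205 and 283 CPM at days 0, 3 and 5 in WT, 236, 289 and 255 in Per1KO, and 282, 291 and 280 in Per2KO. The WT series held both the highest and the lowest value, and the populations overlapped. Fgfr1 made up 98.7 to 99.5% of the summed length-scaled level of the 4 receptors at day 0, 91.6 to 95.4% at day 3 and 89.5 to 92.8% at day 5. Against day 0 its log2 fold change was -0.17 ± 0.21 (SE) at day 3 and -0.12 ± 0.21 at day 5, with adjusted p of 0.559 and 0.666.

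Fgfr3, on chr5:33721674-33737068, was low in growth medium and rose with differentiation. Its level was 0.424, 3.47 and 16.1 CPM in WT, 0.872, 9.30 and 16.8 in Per1KO, and 0.650, 8.07 and 13.4 in Per2KO at days 0, 3 and 5. All 3 day 0 libraries lay under all later ones, and at day 5 the 3 populations were close together. The WT value at day 0 rests on 3 counts, with an exact 95% Poisson interval of 0.0874 to 1.24 CPM, and those of Per1KO and Per2KO on 43 and 33 counts. Fgfr3 reached the minimum of 1 CPM only at days 3 and 5, the days then compared with day 0. In the additive model of all 9 libraries, Fgfr3 rose 10.5-fold by day 3 (log2 fold change 3.40 ± 0.31, adjusted p = 2.53e-04) and 22.9-fold by day 5 (4.52 ± 0.32, 3.35e-05). It was the largest rise among the members on both days, and the step from day 3 to day 5 (1.12 ± 0.26) had an adjusted p of 0.0842.

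Fgfr4, on chr13:55152640-55168759, rose with differentiation as well and lay lower in both knockouts on every day. It measured 2.54, 9.49 and 8.58 CPM in WT, 0.710, 3.52 and 3.89 in Per1KO, and 0.354, 3.00 and 3.78 in Per2KO. The rise lay between days 0 and 3, and the later knockout levels were only slightly above the WT level at day 0. It was 5.36-fold higher at day 3 (log2 fold change 2.42 ± 0.30, adjusted p = 8.69e-04) and 5.92-fold higher at day 5 (2.57 ± 0.30, 3.75e-04), while day 5 against day 3 gave 0.14 ± 0.26 (0.857). The WT values rest on 18, 52 and 39 counts.

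At day 3 the order of Fgfr3 and Fgfr4 differed between the single libraries, and at day 5 Fgfr3 held the larger share in all 3. In WT the length-scaled share of Fgfr3 in the receptor sum was 0.132%, 1.84% and 6.03% at days 0, 3 and 5, and that of Fgfr4 was 1.02%, 6.42% and 4.11%. In Per1KO the shares of Fgfr3 were 0.435%, 3.61% and 7.11% and those of Fgfr4 0.453%, 1.75% and 2.099%. In Per2KO they were 0.272%, 3.14% and 5.28% for Fgfr3 and 0.190%, 1.49% and 1.89% for Fgfr4. Fgfr4 exceeded Fgfr3 in WT at days 0 and 3 and in Per1KO narrowly at day 0, and Fgfr3 exceeded Fgfr4 in the other libraries. These shares come from 1 library each and carry no test.

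**Figure D2:**
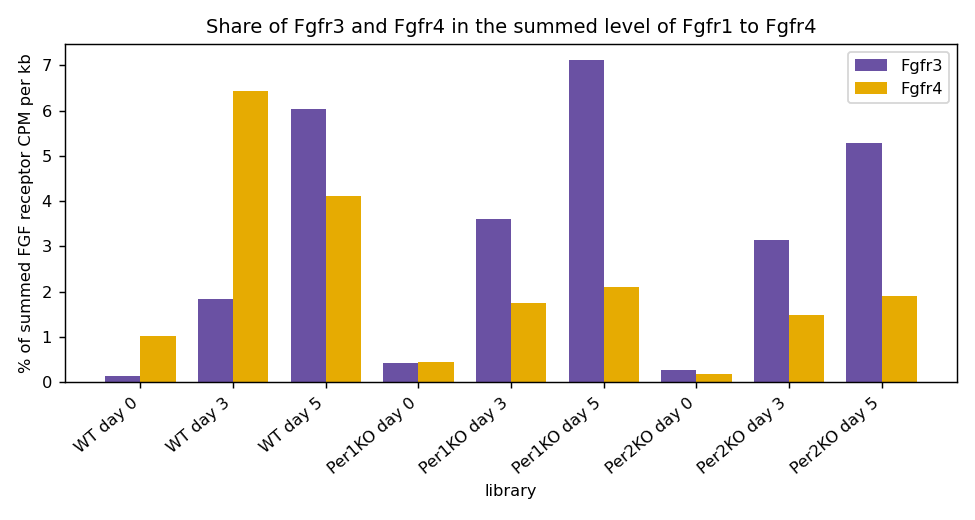
Share of Fgfr3 and Fgfr4 in the summed CPM per kilobase of Fgfr1 to Fgfr4 (%, linear axis from 0) in each of the 9 libraries, with 1 bar per gene and library. Both shares are at or under 1.02% at day 0; at day 3 Fgfr4 holds the larger share in WT (6.42%) and Fgfr3 the larger share in both knockouts.

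Fgfr2 was barely detected. Its counts were 3, 1 and 5 in WT, 3, 0 and 2 in Per1KO and 2, 2 and 5 in Per2KO, which is 0.182 to 1.10 CPM in WT and 0 to 0.122 CPM in the knockouts. The interval of the WT library with 1 count runs from 0.00462 to 1.02 CPM and covers the 5 knockout levels above 0. The intervals of WT at days 0 and 5 run from 0.0874 to 1.24 and from 0.357 to 2.57 CPM. That of day 5 lies above all knockout intervals, of which the highest ends at 0.284 CPM. All WT levels thus lay above all knockout levels, on at most 5 counts per library. The share of all genes with ranges apart is not given here. The count of 0 in Per1KO at day 3 allows up to 0.0621 CPM by the limit of 3 counts. No fold change is given, since most libraries stood at or under 3 counts.

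Fgf2, the ligand among the FGF members, was lower in both knockouts, by the widest margin at day 0. It had 12.3, 10.8 and 15.0 CPM in WT, 2.86, 6.91 and 6.32 in Per1KO, and 1.95, 6.17 and 6.53 in Per2KO. The WT and knockout ranges did not overlap, and the share of all tested genes with ranges apart is not given here. Within each knockout the day 0 value was the lowest of the 3 days. Over the populations Fgf2 was 2.06-fold higher at day 5 than at day 0 (log2 fold change 1.04 ± 0.33, adjusted p = 0.0330), and day 3 gave 0.95 ± 0.33 (0.0570). The day 5 call was lost without Per1KO (0.208) and without Per2KO (0.234). Fgf2 lies on chr3:37348346-37410108, and 9.44% of its exon bases overlap Nudt6 on the other strand. Nudt6 stood at 1.55 to 2.83 CPM in the 9 libraries, against 1.95 CPM for Fgf2 at its lowest, and whether the counting used strand is not given, so that reads in the shared bases cannot be told apart. Nudt6 was not called between either knockout and WT (log2 fold change 0.41 ± 0.26 and 0.35 ± 0.26, adjusted p = 0.307 and 0.372).

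Met, on chr6:17463800-17573980, fell with differentiation, and its single libraries did so in all 3 populations. Its level went from 141 to 67.0 and 48.2 CPM in WT, from 175 to 63.6 and 41.4 in Per1KO, and from 147 to 65.1 and 41.4 in Per2KO. The day 0 libraries lay apart from all later ones, and at day 3 the populations spanned only 63.6 to 67.0 CPM. Met fell by 1.24 ± 0.13 on the log2 scale by day 3 (adjusted p = 3.93e-04) and by 1.83 ± 0.13 by day 5 (3.50e-05), a 3.56-fold drop. From day 3 to day 5 the value was -0.59 ± 0.13 (0.0737).

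Its ligand Hgf, on chr5:16553495-16620152, was at 37.4, 34.5 and 42.0 CPM in WT, 26.7, 36.1 and 13.9 in Per1KO, and 27.4, 34.6 and 16.7 in Per2KO. At day 3 the 3 populations lay together, and at day 5 the single knockout libraries lay under WT by 1.59 (Per1KO) and 1.33 (Per2KO) on the log2 scale. No day comparison called Hgf over the 3 populations: day 3 against day 0 gave 0.26 ± 0.27 (adjusted p = 0.482) and day 5 against day 0 gave -0.48 ± 0.28 (0.191). Without the WT libraries both were called, at 0.39 ± 0.11 (0.0219) and -0.82 ± 0.11 (9.57e-04).

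Egfr, on chr11:16752203-16918158, moved in opposite directions between the single libraries of WT and of the knockouts. It measured 47.9, 26.1 and 44.0 CPM in WT, 24.7, 61.2 and 31.4 in Per1KO, and 24.0, 53.2 and 39.8 in Per2KO. Day 3 was the lowest point in WT and the highest in both knockouts. The additive model, which assumes a common day effect, gave 0.63 ± 0.39 at day 3 and 0.29 ± 0.38 at day 5 (adjusted p = 0.237 and 0.563). Without WT these became 1.23 ± 0.14 (6.04e-04) and 0.55 ± 0.14 (0.0141).

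Of the PDGF receptors, Pdgfra, on chr5:75152292-75198215, had 22.6, 12.8 and 22.7 CPM in WT, 7.28, 6.96 and 10.2 in Per1KO, and 7.56, 7.10 and 9.11 in Per2KO. Every WT library exceeded every knockout library, and the share of all tested genes of which this holds is not given here. Day 3 was the lowest day in each population. Pdgfrb, on chr18:61045150-61085061, had 216.6, 165 and 306 CPM in WT, 117, 196 and 147 in Per1KO, and 76.9, 176 and 184 in Per2KO. Its populations overlapped, with WT highest at days 0 and 5 and Per1KO highest at day 3. Neither was called by day: Pdgfra gave -0.30 ± 0.18 at day 3 and 0.25 ± 0.18 at day 5, and Pdgfrb gave 0.54 ± 0.29 (adjusted p = 0.190) and 0.68 ± 0.29 (0.0913). Between days 0 and 3, Egfr and Pdgfrb went one way in WT and the other way in both knockouts, with counting intervals apart in each pair of libraries, which 5.99% of all tested genes did. Between days 3 and 5, Egfr and Fgfr1 did so (4.68% of genes), and between days 0 and 5, 0 members did (3.16%). For Egfr and Pdgfrb, the trend with GC content and length is given with the flagged results, and its part was not tested. Without WT, Pdgfrb was called at day 3 (0.95 ± 0.20, 0.00698) and day 5 (0.79 ± 0.20, 0.0126), and Pdgfra at day 5 (0.38 ± 0.13, 0.0428).

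The comparisons by day, which ask how the transcriptome changes before and during differentiation, thus called 3 of the 9 tested members at day 3 against day 0 (Fgfr3 and Fgfr4 higher, Met lower), where 35.0% of all tested genes were called, 18.1% higher and 16.9% lower. At day 5 against day 0 they called 4 of 9 (Fgfr3, Fgfr4 and Fgf2 higher, Met lower), where 46.1% of all genes were, 23.2% higher and 22.9% lower. Both shares of members are near the background, so the counts alone set the members apart from no other genes. Fgfr3 passed the minimum of 1 CPM only at days 3 and 5, and Fgfr4 at day 0 only in WT, so the filter leaned towards their rise. Day 5 against day 3 called 0 of 9 by edgeR, where 1.79% of genes were called. DESeq2 called 2, and its count over all genes is given in the last section. An unadjusted p under 0.05 was reached by 4 members, and the share of all genes at that threshold is not given here. Without the WT libraries the numbers were 7, 8 and 4 of 9. More of all tested genes were called as well at day 3 against day 0 and at day 5 against day 3, as given in the last section. For day 5 against day 0 that count over all genes is not given here.

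**Figure D3:**
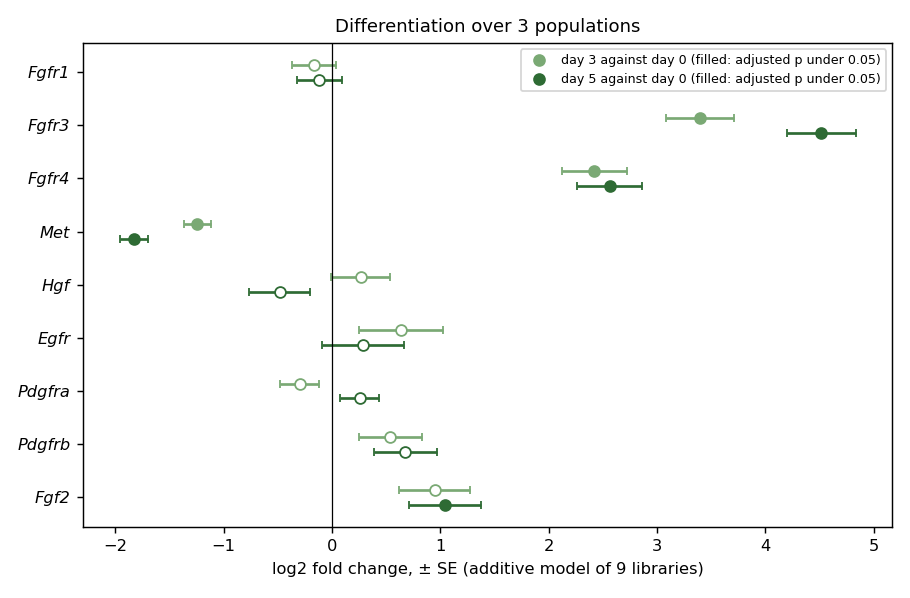
Log2 fold change ± SE of the 9 tested members at day 3 and day 5 against day 0 from the additive model of 9 libraries, filled where the adjusted p is under 0.05. Fgfr3 and Fgfr4 lie to the right and Met to the left on both days, and Fgf2 is filled at day 5 only.

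Against WT, the same 3 members were lower in each knockout: Fgfr4, Pdgfra and Fgf2. In Per1KO 3 of 9 tested members were called lower and 0 higher, where 19.3% of all tested genes were called, 9.26% higher and 10.1% lower. In Per2KO it was again 3 of 9 lower and 0 higher, where 19.9% were called, 9.31% higher and 10.6% lower. Both comparisons use the same 3 WT libraries, so the second is no separate support for the first.

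Fgfr4 was 2.69-fold lower in Per1KO (log2 fold change -1.43 ± 0.29, adjusted p = 0.0131) and 3.34-fold lower in Per2KO (-1.74 ± 0.29, 0.00555). Day by day, the single libraries of Per1KO lay under WT by -1.76, -1.42 and -1.13 on the log2 scale and those of Per2KO by -2.65, -1.64 and -1.17. All 6 knockout libraries were thus lower than WT of the same day, although the ranges over the 3 days overlapped. The Per1KO call was lost without day 3 (-1.45, 0.127) or day 5 (-1.60, 0.0795), and the Per2KO call without day 3 (-1.83, 0.0904). The 8 myotube markers were Myog, Mymk, Myh3, Actc1, Ckm, Tnnt1, Tnnc1 and Ttn. They summed to 629 CPM in WT at day 0 against 113 in Per1KO and 76.7 in Per2KO, and to 14873 CPM at day 5 against 9763 and 8123. Of these 8 genes, 2 were lower in Per1KO (Actc1 and Myog) and 3 in Per2KO (with Tnnt1), where 10.1% and 10.6% of all tested genes were. Ttn lay slightly the other way (log2 fold change 0.06 and 0.10, not called). The part of these markers in the Fgfr4 difference was not tested. In bulk RNA, fewer cells of a type and less RNA per cell cannot be told apart.

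Pdgfra was 2.36-fold lower in Per1KO (log2 fold change -1.24 ± 0.18, adjusted p = 0.00313) and 2.41-fold lower in Per2KO (-1.27 ± 0.18, 0.00277). The differences by day were -1.63, -0.87 and -1.15 in Per1KO and -1.57, -0.84 and -1.31 in Per2KO. Without day 5 both calls were lost, narrowly (-1.28 with adjusted p = 0.0560, and -1.24 with 0.0592). Of 9 markers of fibro-adipogenic progenitors and fibroblasts, 6 were tested and 4 were lower in each knockout: Cd34, Col15a1, Osr1 and Pi16. Of all tested genes, 10.1% were lower in Per1KO and 10.6% in Per2KO. Cd34, a surface sialomucin, stood at 47.5 to 157 CPM in WT, 7.71 to 23.6 in Per1KO and 13.0 to 26.6 in Per2KO. Dcn and Ly6a, the most abundant of the list, were not called (Dcn -0.80 ± 0.63 and -0.51 ± 0.61, adjusted p = 0.406 and 0.589). The 9 markers summed to 488 to 1104 CPM in WT, 174 to 1179 in Per1KO and 171 to 1325 in Per2KO, with Tcf21 at 0 in every library. Their part in the Pdgfra difference was not tested.

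Fgf2 was 2.59-fold lower in Per1KO (log2 fold change -1.38 ± 0.33, adjusted p = 0.0255) and 2.95-fold lower in Per2KO (-1.56 ± 0.34, 0.0155). By day the differences were -2.08, -0.63 and -1.24 in Per1KO and -2.62, -0.80 and -1.19 in Per2KO, largest at day 0 in both. The calls were lost without day 3 (-1.71 with adjusted p = 0.0674, and -1.92 with 0.0580) and without day 5 (-1.45 with 0.157, and -1.77 with 0.0990). For Per2KO the call was also lost when only its 6 libraries with WT were fitted (-1.54, 0.0570).

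The other 6 tested members did not pass the test in either knockout. Pdgfrb had -0.60 ± 0.29 in Per1KO and -0.74 ± 0.29 in Per2KO (adjusted p = 0.188 and 0.118), and Hgf -0.69 ± 0.28 and -0.63 ± 0.28 (0.130 and 0.158). Fgfr3 had positive values, 0.65 ± 0.31 and 0.35 ± 0.31 (0.175 and 0.456). Met (0.01 ± 0.13 and -0.06 ± 0.13), Fgfr1 (-0.12 ± 0.21 in Per1KO, with an adjusted p of 0.705) and Egfr (-0.16 ± 0.39 and -0.14 ± 0.39) were nearest to 0. For Pdgfrb, the 7 pericyte and smooth muscle markers summed to 224 to 445 CPM in WT, 150.4 to 252 in Per1KO and 173 to 232 in Per2KO. Rgs5, a defining pericyte marker, was at 0 in all WT libraries and at most at 0.0487 CPM in the knockouts. Of the 3 of these markers tested, 1 (Cspg4) was lower in each knockout, where 10.1% (Per1KO) and 10.6% (Per2KO) of all tested genes were.

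**Figure D4:**
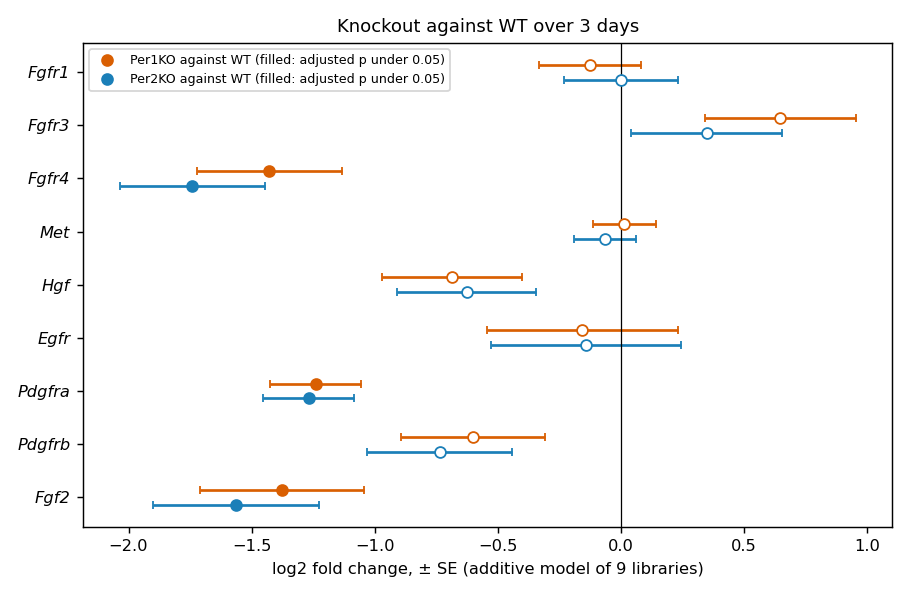
Log2 fold change ± SE of the 9 tested members in Per1KO and Per2KO against WT from the additive model of 9 libraries, filled where the adjusted p is under 0.05. Fgfr4, Pdgfra and Fgf2 are filled on the left in both knockouts, and the values of both knockouts lie close together for every gene.

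Between the knockouts no member was called. The log2 fold changes of Per1KO against Per2KO ran from -0.12 ± 0.20 for Fgfr1 to 0.31 ± 0.27 for Fgfr4, and each adjusted p was 1.00. By edgeR 0 of 13324 genes were called (0%), with 88 at an unadjusted p under 0.05, none of them a member, and DESeq2 called 0 members. A missed threshold does not show that the knockouts were alike.

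A member's change from day 0 to the later days (3 and 5 together) was also compared between each knockout and WT, as an interaction term. For the unadjusted p counted next, the share over all genes is not given here. By edgeR 0 of 9 members and 0 of 13324 genes were called for either knockout (0%), while 2 members in each had an unadjusted p under 0.05 and DESeq2 called 0 members. The differences in response included those of Fgf2, 1.15 ± 0.40 in Per1KO and 1.64 ± 0.40 in Per2KO (adjusted p = 0.424 and 0.197), Egfr, 1.36 ± 0.68 and 1.41 ± 0.68 (0.532 and 0.440), Fgfr1, 0.83 ± 0.34 and 0.64 ± 0.33 (0.465 and 0.479), and Fgfr4, 0.55 ± 0.47 and 1.41 ± 0.50 (0.720 and 0.308). Within a population day 0 is 1 library, assumed to vary like the others: the spread comes only from day 3 against day 5, with 3 residual degrees of freedom. On that footing, Fgf2 stood at 0.06 ± 0.29 in WT at days 3 and 5 against day 0 (0.919), and rose by 1.21 ± 0.29 in Per1KO (0.0375) and 1.70 ± 0.30 in Per2KO (0.0184). Fgfr4 gave 1.83 ± 0.36 in WT (0.0614), 2.38 ± 0.34 in Per1KO (0.0134) and 3.24 ± 0.37 in Per2KO (0.00756), and Met -1.29 ± 0.37 (0.112), -1.74 ± 0.36 (0.0281) and -1.47 ± 0.36 (0.0424). Fgfr3 gave 4.49 ± 1.39 in WT (0.127), 3.90 ± 0.98 in Per1KO (0.0431) and 4.04 ± 1.00 in Per2KO (0.0424). So 0, 4 and 4 of 9 members were called in WT, Per1KO and Per2KO, where 2.23%, 18.3% and 17.6% of all tested genes were. The Per1KO calls of Fgfr3 (0.0590) and Fgf2 (0.0749) were lost without Per2KO, and the Per2KO call of Met (0.0520) without WT. The Per2KO calls of Fgfr3 and Fgf2 were also lost, in at least 1 alternative processing each. With simulated 2-fold differences in response, 16.2% of changed genes were recovered by the test of the interaction, and 85.9% of 4-fold ones. Every simulated gene had the same dispersion, so these shares need not hold for the real counts.

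The other genes of these pathways were taken as lists and are described by counts. Of 24 genes for members of the FGF family and partners of FGF receptors (Fgf2 included), 14 were tested. At day 5 against day 0 there were 6 higher and 5 lower, with a median log2 fold change of 1.01. The median over all genes tested was -0.01. Of all tested genes, 23.2% were higher and 22.9% lower. Fgfbp1, which encodes a carrier that releases FGFs from the matrix, went from 0.28, 1.36 and 0.59 CPM at day 0 in WT, Per1KO and Per2KO to 12.8, 11.7 and 5.75 at day 5 (3.34 ± 0.47, adjusted p = 9.95e-04). Fgfrl1, an FGF receptor without a kinase domain, rose by 1.96 ± 0.20 (1.73e-04), and the heparan sulfate carriers split, with Gpc1 and Sdc2 higher and Sdc1, Sdc3 and Sdc4 lower. Fgf7, the ligand of an epithelial splice form of FGFR2, had the largest fall (-1.81 ± 0.54, 0.0271), although in WT it stood at 7.06 and 7.70 CPM at days 0 and 5. Against WT, 5 of the 14 were lower in each knockout and 0 higher (Fgf2, Fgf11, Fgf21, Sdc1 and Sdc3), with medians of -0.31 in Per1KO and -0.67 in Per2KO against -0.02 and -0.01 over all genes. Over all genes 10.1% and 10.6% were lower, and 9.26% and 9.31% higher. Sdc1, a heparan sulfate co-receptor, had -1.11 ± 0.13 and -1.14 ± 0.13 (0.00111 and 9.66e-04).

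Among the ligands of the PDGF receptors, Pdgfb was the 1 of 4 that rose by day 5 (0.94 ± 0.24, adjusted p = 0.0147) and 0 fell, with a median of 0.29. Of all tested genes, 23.2% were higher and 22.9% lower by that day. In Per1KO 0 of the 4 were called, and 2 had an unadjusted p under 0.05, a threshold whose share over all genes is not given here. In Per2KO Pdgfb (-1.14 ± 0.25, 0.0174) and Pdgfa (-0.58 ± 0.17, 0.0489) were lower, where 10.6% of all tested genes were. Of 8 genes for HGF activation and the related receptor, 2 were tested: Plat, a plasminogen activator that can cleave pro-HGF, rose by 0.85 ± 0.24 by day 5 (0.0222), and Plau stood at -0.33 ± 0.31 (0.408). Neither was called in a knockout.

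Of 13 genes for EGF family ligands and the ERBB receptors other than Egfr, 8 were tested. By day 5, Erbb2 and Erbb3 were higher, and of 6 ligands 4 (Areg, Btc, Ereg and Tgfa) were lower and 2 (Hbegf and Nrg1) not called, with a median of -1.11 over the 8. Of all tested genes, 23.2% were higher and 22.9% lower by that day. Egfr itself was not called, as given above. Areg, which encodes the EGFR ligand amphiregulin, went from 10.6, 14.1 and 15.4 CPM at day 0 to 2.42, 1.20 and 1.27 at day 5 (-3.26 ± 0.40, adjusted p = 5.26e-04). Erbb3, a neuregulin receptor, went from 66.7, 25.4 and 24.5 CPM to 219.9, 170.2 and 125 (2.27 ± 0.21, 1.14e-04). Erbb3 was lower in Per1KO (-0.77 ± 0.20, 0.0323) and in Per2KO (-0.97 ± 0.20, 0.0131), the only call of the list in Per1KO, with Erbb2 joining it in Per2KO (-0.60 ± 0.10, 0.00551). Of all tested genes, 10.1% were lower in Per1KO and 10.6% in Per2KO.

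Downstream, the 21 genes for receptor adaptors and the RAS-ERK cascade had fewer calls at day 5 against day 0 than the 20 target and feedback genes of ERK. In the cascade 3 were higher and 3 lower, with a median of 0.01, where 23.2% of all tested genes were higher and 22.9% lower. Gab2, a docking protein, rose by 1.33 ± 0.16 (adjusted p = 4.94e-04), and Nras fell by 0.45 ± 0.10 on the log2 scale (0.00737). Of the ERK target and feedback genes 2 were higher and 14 lower, with a median of -0.92, against the same shares over all genes. Fosl1, which encodes the AP-1 subunit FRA1, went from 66.9, 105 and 56.2 CPM at day 0 in WT, Per1KO and Per2KO to 5.28, 9.94 and 10.7 at day 5 (-3.06 ± 0.28, 1.13e-04). Spry1, an inhibitor of receptor tyrosine kinase signalling that is itself induced by it, went the other way, from 5.93, 2.80 and 2.20 CPM to 44.2, 17.4 and 18.2 (2.86 ± 0.18, 2.27e-05). Without Per1KO the list counted 1 higher and 5 lower at day 5, and without Per2KO 1 higher and 11 lower.

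**Figure D5:**
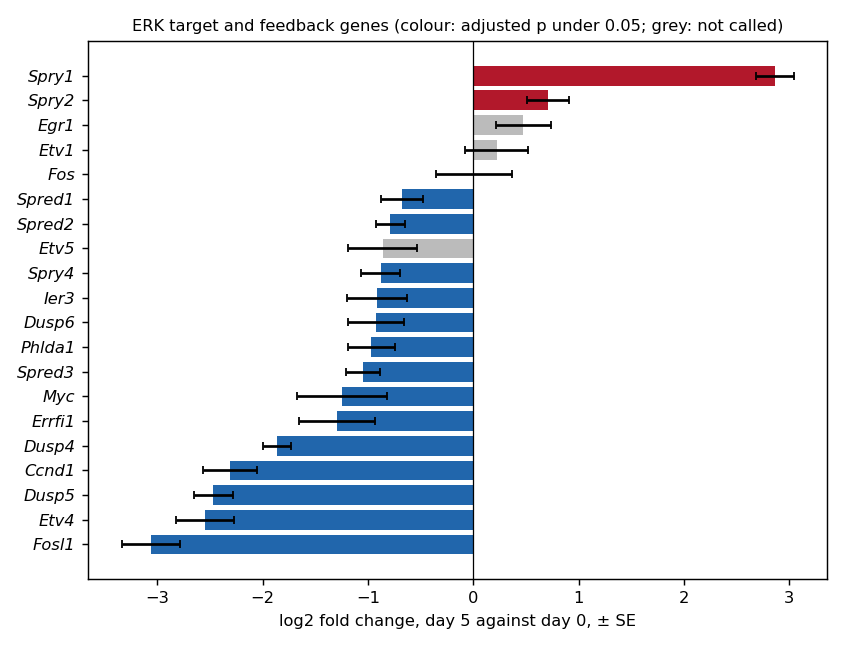
Log2 fold change ± SE at day 5 against day 0 of the 20 ERK target and feedback genes from the additive model of 9 libraries, with bars from 0, in red and blue where higher and lower at an adjusted p under 0.05 and grey where not called. Spry1 and Spry2 are the 2 genes on the right that are called, and 14 are called on the left, with Fosl1 at -3.06.

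Against WT the ERK target list had 1 higher (Dusp4) and 1 lower (Spry1) of 20 in Per1KO, where 9.26% of all tested genes were higher and 10.1% lower. In Per2KO it had 1 higher (Dusp4) and 2 lower (Spry1 and Spry4), where 9.31% were higher and 10.6% lower. The medians were -0.02 and -0.00, with single genes on both sides of 0. Spry1 was lower in Per1KO (-1.08 ± 0.17) and in Per2KO (-1.15 ± 0.17, adjusted p = 0.00466 and 0.00339), with each knockout library under WT of the same day. Dusp4, an ERK phosphatase, was higher (0.59 ± 0.14 and 0.60 ± 0.14, 0.0211 and 0.0188). In the cascade Sos1 was higher and Ksr1, Map2k2 and Mapk3 lower in each knockout, Ksr1, an ERK scaffold, by -0.92 ± 0.19 and -0.93 ± 0.19 (0.0133 and 0.0122). Of 8 genes for receptor turnover, 3 were higher (Cblb, Flrt2 and Flrt3) and 2 lower (Cbl and Sh3kbp1) at day 5 against day 0. Of all tested genes, 23.2% were higher and 22.9% lower in that comparison. Cblb, a ubiquitin ligase of activated receptors, was the 1 called against WT in Per1KO (-0.65 ± 0.12, 0.00858) and Per2KO (-0.59 ± 0.12, 0.0120).

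Among the members, the levels of Fgfr3 and Met ran in opposite directions over the 9 libraries (Pearson's r of log2 CPM -0.96), and those of Fgf2 ran with Pdgfrb (0.92) and Fgfr4 (0.90). These are descriptions over 9 libraries that share days and populations. Among protein-coding genes that averaged 10 CPM or more, those most like a member were Asb1 and Atp13a3 for Fgfr3 (0.99 each), Otog and Susd5 for Fgfr4 (0.99 each), Pgm2 and Cntrob for Met (0.996 and 0.995), and B4galt5 and Cd248 for Fgf2 (0.98 each). Pdgfra was followed most closely by Fbxl18 and Lrrc47 (0.98 each), Pdgfrb by Sh3bp2 (0.97) and Bicc1 (0.96), and Fgfr1 by Wdr19 and Lama5 (0.95 each). Egfr was nearest to Tle2 (0.95) and Ltbp4 (0.94), and Hgf to Ndst2 (0.94) and Cbll1 (0.93).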

How the data were processed

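Per the labels' protocols, polyadenylated RNA was made into TruSeq libraries and read as single reads on an Illumina HiSeq; the submitters' processing notes name CASAVA 1.8, HISAT2 2.1.0 and build mm10, without roles. The counting program, annotation, strand and treatment of reads that match several genes are not given in the sources used here. The deposited values are whole-number counts per Ensembl gene, used as the authors left them; 47224 of 47729 genes matched a symbol, and 0 rows named no gene. Positions are those of GENCODE M21 on GRCm38.

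CPM were scaled by trimmed mean of M values (TMM). The test was edgeR 4.0.16's robust quasi-likelihood test (limma 3.58.1, R 4.3.3) on all 9 libraries with Benjamini-Hochberg adjustment, called under 0.05; every adjusted p comes from it unless DESeq2 1.42.0 is named. Genotype and day were additive (4 residual degrees of freedom), so days stand in for replicates of a population and populations for replicates of a day; the interaction model left 3. P-values speak of these cell populations, not of separate clones. For pairs of single libraries, log2 CPM (prior count 2) was subtracted, with no test. Poisson intervals and the limit of 3 counts cover counting error only. On simulated counts for 13324 genes, 89.0% of 2-fold and 100% of 4-fold changes were recovered for Per1KO against WT, with 6 false calls. The simulation gave every gene the same dispersion and, for this comparison, the same genotype effect on every day. These shares therefore need not hold for the real counts.

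The members, lists and tests were chosen with earlier results of these data known. Genes named are the targets, the 10 members, the called genes with the largest rise and fall per list and the 2 most correlated genes per member; Fgfrl1, Sdc1, Pdgfa, Plau, Erbb2, Nudt6, single marker genes and list genes given without values were picked with their values in view. Alternatives covered normalization, filters, DESeq2, a GC and length correction, thinning to the smallest library, and leaving out days or populations.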

Additional observations from a re-analysis of the deposited data

Results flagged for a closer look

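With 95% Poisson intervals of the counts apart in each pair of libraries, Egfr and Pdgfrb moved one way between day 0 and day 3 in the WT library pair and the other way in both knockout pairs. Egfr differed by -0.87 on the log2 scale in WT, against 1.30 in Per1KO and 1.15 in Per2KO. Pdgfrb differed by -0.39 in WT, against 0.74 and 1.20. Of all tested genes, 5.99% showed such opposite movement between these days. From day 3 to day 5, Egfr gave 0.75 in the WT pair and -0.96 and -0.42 in the knockouts, and Fgfr1 gave 0.46 in WT against -0.18 and -0.05; 4.68% of genes showed that pattern. From day 0 to day 5 no member did, where 3.16% of genes did. The fitted trend with GC content and length also moved between these libraries. For Egfr it was -0.06, -0.25 and 0.12 (log2) in WT at days 0, 3 and 5. It was -0.18, 0.13 and 0.09 in Per1KO, and -0.17, 0.17 and 0.14 in Per2KO. For Pdgfrb at days 0 and 3 it was 0.17 and 0.11 in WT. In Per1KO it was -0.32 and 0.01, and in Per2KO -0.35 and -0.03. The part of this trend in the differences was not tested. With 1 library per population and day, the difference at a single day was not tested.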

How the results depend on the processing

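The number of members called changed with the following alternatives. Against WT the count of 3 in each knockout was again 3 with DESeq2, RLE scaling, TMM from protein-coding genes, thinning and the GC and length correction. It was 4 in Per1KO (with Fgfr2) and 3 in Per2KO without a filter, 2 in both with a filter of 5 CPM (which drops Fgfr4), 3 and 2 from 6 libraries, and ranged from 0 to 3 in Per1KO and from 1 to 3 in Per2KO when 1 day was left out. Leaving out 1 population gave 3 to 7 members at day 3 against day 0, 3 to 8 at day 5 against day 0 and 0 to 4 at day 5 against day 3. The last comparison also had 2 with DESeq2, 1 without a filter on low counts, 1 after thinning to the smallest library and 1 from the libraries of the 2 days alone. Days 3 and 5 against day 0 gave 3 members in WT with DESeq2 and 2 without the filter; after thinning they gave 2 in Per1KO and 2 in Per2KO, and 2 to 4 in Per1KO when another population was left out.

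Values near 0 changed sign. Fgfr1 in Per1KO against WT became 0.20 after the GC and length correction and ran from -0.41 to 0.16 with a day left out. In Per2KO against WT Fgfr1 became 0.00152 with DESeq2, 0.00143 with RLE scaling, 0.0378 with TMM from protein-coding genes, 0.35 after the GC and length correction, 0.0797 without the filter and 0.0252 from 6 libraries, and ran from -0.22 to 0.23. With a day left out, Met ran from -0.15 to 0.12 in Per1KO and from -0.13 to 0.00929 in Per2KO (0.0152 without the filter), Egfr from -0.74 to 0.34 and from -0.58 to 0.37, and Fgfr3 in Per2KO from -0.10 to 1.06. With a population left out, Fgfr1 ran from -0.41 to 0.17 at day 3 and from -0.22 to 0.0520 at day 5. Fgfr4 in Per1KO against Per2KO became -0.17 after thinning. The causes were not tested. The GC and length correction moved the median of all genes to -0.12 at days 3 and 5 against day 0. After thinning, Fgf2 at day 5 against day 0 had an adjusted p of 0.132. Counts over all genes moved as well: 2575 for Per1KO against WT became 1391 from 6 libraries, 989 without day 3 and 780 without day 5, and 2652 for Per2KO became 1263, 901 and 855. The 4664 at day 3 against day 0 became 1147 without Per1KO, 1440 without Per2KO, 7684 without WT and 3105 from 2 days, the 6149 at day 5 became 2348 without Per1KO and 2993 without Per2KO, and the 238 of day 5 against day 3 ranged from 0 (without Per1KO or Per2KO) to 1393 (without WT), with 733 for DESeq2. DESeq2 called 248 and 476 genes for the knockouts' response, where edgeR called 0 (315 and 567 without a filter), and 1763 against 297 for the later days in WT. No paired analysis was possible because the labels give no replicate numbers, other than the matching by day that the additive model already holds. The WT depth limits Fgfr2, Fgfr3 and Fgfr4 at day 0, with 3, 3 and 18 counts.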
